A study of Mus musculus with 16 samples.

Results

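The 40 genes described here are interferon-stimulated genes, a list of mouse genes that respond to interferons, taken by symbol from the table of read counts. All 40 were among its 24411 genes and all 40 were among the 13660 genes that passed a filter on low counts. They were measured by RNA-seq of polyA RNA from the pancreas of 16 male C57BL6/J mice of 12 weeks, 1 library a mouse, in a study of cholecystokinin (CCK) in the obese pancreas. The 3 groups were 5 WT mice, 7 untreated obese Lep(ob/ob) mice (OB) and 4 Lep(ob/ob) mice treated with an antagonist of CCK receptors (CCKRi), and the question of the first comparison was what leptin deficiency changes and of the second what blocking CCK receptors changes in it. WT and OB mice drank control water for 6 weeks from 6 weeks of age. Of the CCKRi mice, 2 received proglumide at 0.1 mg/mL and 2 lorglumide at 0.05 mg/mL in drinking water over the same 6 weeks, and no WT mouse was treated. The Lep(ob/ob) genotype removes leptin, the hormone that restrains feeding, and leads to obesity. Final weights were 48.6 to 54.2 g in OB and 52.1 to 57.3 g in CCKRi mice against 24.0 to 32.3 g in WT mice. The labels and the study's methods differ on whether the WT mice were bred in house or purchased like the Lep(ob/ob) mice. If they were bred in house, genotype and origin cannot be told apart.

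The labels name 2 batches, called A and B here. Batch A held 3 WT and 4 OB mice, and batch B held 2 WT, 3 OB and all 4 CCKRi mice. Total counts were 19.2 to 34.45 M in batch A and 9.87 to 15.9 M in batch B, and the 50 most counted genes of each library took 49.3% to 85.0% of them. *Lep*, whose transcript the mutation leaves in place, was at 0.986 to 3.68 CPM in WT, 14.2 to 477 in OB and 52.8 to 502 in CCKRi mice. CPM are counts per 1 M of the library size after TMM normalization, and the means of log2 CPM below add a prior count of 2. The 8 acinar markers, which check the tissue, averaged 11.7 to 14.3 log2 CPM. In bulk tissue, fewer cells of a type and less RNA per cell cannot be told apart.

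Interferons are cytokines released on viral infection and other danger. Type I interferons act through the receptor chains IFNAR1 and IFNAR2, and the kinases JAK1 and TYK2 then activate a complex with STAT2 and IRF9 that binds the interferon-stimulated response element (ISRE) of target promoters. Interferon gamma acts through IFNGR1 and IFNGR2 and on promoters with the gamma-activated sequence (GAS), while IRF1 and IRF7 are themselves induced and carry the response further.

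RefSeq promoters (build GRCm38.p6) were matched by symbol for 29 of the 40 genes. Each window ran from 250 bases before the start site to 50 after it, and 6 genes had 2 windows. The core letters of the ISRE, GAAANNGAAA on either strand, stood in at least 1 window of 17 of the 29 genes (58.6%), against 3.99% of 27025 genes with a window. The letters of a GAS, TTCNNNGAA, which reads the same on both strands, stood in 20.0% of 35 windows of these genes and in 8.30% of all 32851 windows. Both are descriptions of letters in these windows, and no test was made. The 250 bases before the start site are shown for the 3 genes that passed the test in the comparison of genotypes, *Rsad2*, *Cmpk2* and *Stat2*, and for *Isg15* and *Ifit1*, 2 of the genes that stood highest in a single WT mouse. They are given 5′ to 3′ on the strand of the gene, and capitals mark the ISRE letters, on either strand.
*Rsad2*, chr12:26456453-26456702, - strand: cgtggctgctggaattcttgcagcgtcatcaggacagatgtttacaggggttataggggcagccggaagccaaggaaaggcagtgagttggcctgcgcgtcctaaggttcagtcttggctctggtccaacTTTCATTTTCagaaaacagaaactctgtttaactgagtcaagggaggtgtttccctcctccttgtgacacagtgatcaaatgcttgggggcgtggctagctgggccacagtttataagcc
*Cmpk2*, chr12:26468965-26469214, + strand: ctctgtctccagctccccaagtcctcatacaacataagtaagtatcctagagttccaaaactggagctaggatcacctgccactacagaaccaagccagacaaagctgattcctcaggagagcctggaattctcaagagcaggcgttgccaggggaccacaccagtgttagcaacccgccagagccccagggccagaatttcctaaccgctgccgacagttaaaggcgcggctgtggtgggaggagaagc
*Stat2*, chr10:128270248-128270497, + strand: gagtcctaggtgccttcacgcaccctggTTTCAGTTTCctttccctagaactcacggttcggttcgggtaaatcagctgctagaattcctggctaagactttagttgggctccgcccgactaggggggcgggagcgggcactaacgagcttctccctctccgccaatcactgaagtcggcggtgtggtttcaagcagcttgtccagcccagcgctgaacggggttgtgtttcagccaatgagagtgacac
*Isg15*, chr4:156200819-156201068, - strand: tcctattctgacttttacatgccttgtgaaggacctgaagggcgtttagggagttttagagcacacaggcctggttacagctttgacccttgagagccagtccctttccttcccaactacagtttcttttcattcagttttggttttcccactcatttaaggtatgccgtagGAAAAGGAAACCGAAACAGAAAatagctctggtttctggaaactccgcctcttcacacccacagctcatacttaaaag
*Ifit1*, chr19:34640639-34640888, + strand: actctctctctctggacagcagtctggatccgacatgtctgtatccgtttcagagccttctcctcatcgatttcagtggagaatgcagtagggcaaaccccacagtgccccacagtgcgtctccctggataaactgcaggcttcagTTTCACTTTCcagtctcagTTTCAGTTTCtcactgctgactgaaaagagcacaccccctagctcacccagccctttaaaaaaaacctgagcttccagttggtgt
*Isg15* held 3 overlapping matches, the first beginning 78 bases before the start site. *Ifit1* held 2, and *Rsad2* and *Stat2* held 1 each, that of *Rsad2* beginning 120 bases before the start. No match of these letters lay in the window of *Cmpk2*. *Rsad2* (chr12:26442746-26456452, - strand) and *Cmpk2* (chr12:26469204-26479837, + strand) are neighbours that point away from each other, with 12.8 kb between their start sites.

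As a set, the genes varied widely between mice of the same group. The mean of log2 CPM over the 40 genes was 2.09 ± 0.44 (SD, n = 5) in WT, 1.64 ± 0.66 (n = 7) in OB and 1.78 ± 0.17 (n = 4) in CCKRi mice. In batch A the WT mice 5489, 5492 and 5494 stood at 2.76, 1.77 and 1.64, and the OB mice 441, 472, 417 and 447 at 1.31, 1.17, 1.86 and 0.79. Of the 4 OB mice 3 were below all WT mice of the batch and OB 417 was above 2 of them. In batch B the WT mice 58 and 59 stood at 2.20 and 2.06, and the OB mice 461, 463 and 464 at 1.96, 2.81 and 1.56. OB 463 was above both WT mice and the other two OB mice were below them. The mean of OB minus that of WT was -0.77 in batch A and -0.02 in batch B, where the pooled SD within group and batch was 0.45. Without WT 5489 the difference in batch A was -0.42, and without OB 463 that in batch B was -0.37.

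**Figure D1:**
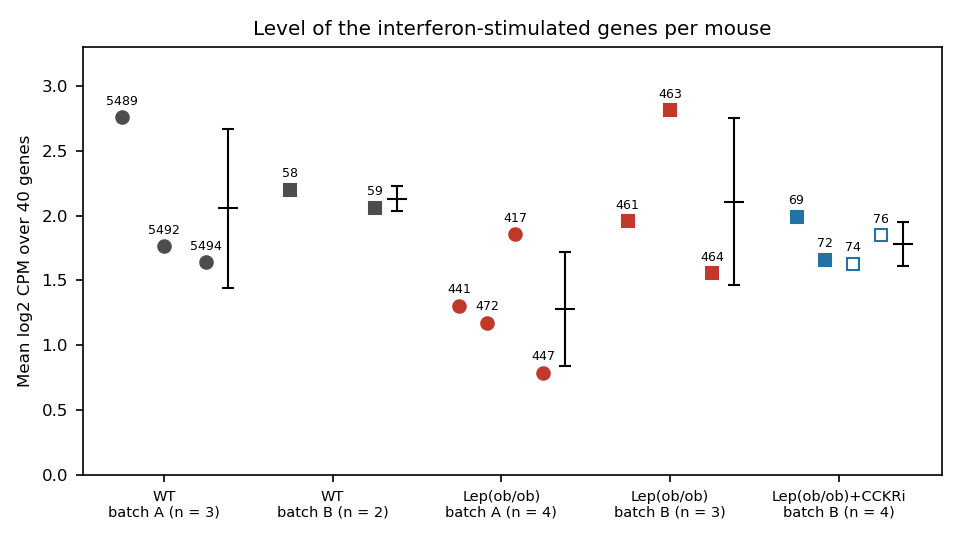
Mean log2 CPM over the 40 interferon-stimulated genes (y axis) in each of 16 mice, by group and batch (x axis). Circles are batch A, squares batch B, open squares lorglumide, numbers are mouse numbers and bars are mean ± SD. WT 5489 (2.76) and Lep(ob/ob) 463 (2.81) lie above all other mice, and the 4 Lep(ob/ob) mice of batch A lie between 0.79 and 1.86.

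Expressed per kb of exon, which allows genes to be compared, *Ifi27l2a* was the highest of the 40 genes in every group, with 19.9 CPM per kb in WT, 10.4 in OB and 11.3 in CCKRi mice. *Bst2*, which encodes tetherin, a membrane protein that holds back budding virus, followed in WT mice with 10.4 CPM per kb. *Gbp2*, a guanylate-binding GTPase, came next in WT mice with 4.08 CPM per kb. The lowest were *Mx2* and *Oas3*, both with 0.14 CPM per kb in WT mice. *Mx2* is annotated as a polymorphic pseudogene. *Rsad2* ranked 4 of 40 in WT, 22 in OB and 12 in CCKRi mice.

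In OB against WT mice, 3 of the 40 genes fell and none rose by edgeR's quasi-likelihood test with batch as a covariate and Benjamini-Hochberg adjustment over all 13660 genes at 0.05. Of all genes tested, 3.14% were called lower and 5.93% higher. *Rsad2* encodes viperin, *Cmpk2* a mitochondrial nucleotide kinase next to it, and *Stat2* a subunit of the ISRE-binding complex. The log2 fold change was below 0 for 37 of 40 genes, against 52.3% of all genes, with a median of -0.38 for the 40 genes and -0.02 for all genes. In batch B alone 17 of 40 genes were below 0, with a median of 0.18. At an unadjusted p under 0.05 there were 7 genes, or 17.5% of the list against 23.8% of all genes in either direction. All 7 were lower, and of all 13660 genes 1583 were lower at that p. Markers of other cells moved as well. Of the 6 adipocyte markers 1 was called lower and 4 were positive (median 1.49), and of the 5 duct markers 1 was called higher and 1 lower. Of the 8 acinar markers 1 was called lower and 5 were negative (median -0.10). Of the 10 macrophage markers 9 were positive (median 0.46) and none was called. Of the 7 islet markers 5 were called higher (median 2.27), all 3 natural killer cell markers had negative fold changes (median -1.13), and of the 5 dendritic cell markers 3 were negative, 2 of them at an unadjusted p under 0.05, and 2 positive. Their part in the values of the 40 genes was not tested.

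*Rsad2* was at 27.8, 4.08, 4.76, 18.02 and 13.6 CPM in WT 5489, 5492, 5494, 58 and 59. In OB mice it ranged from 2.98 to 6.69 with a median of 4.42 CPM, and in the CCKRi mice 69, 72, 74 and 76 it was at 3.63, 4.49, 6.56 and 11.3 CPM. Of the WT mice, 3 stood above every OB mouse and 5492 and 5494 stood inside the OB range. The log2 fold change of OB against WT was -1.53 ± 0.40 (SE), with an adjusted p of 0.0251 by edgeR. It was -1.35 in batch A alone and -1.69 in batch B alone. Without WT 5489 it was -0.85, with an adjusted p of 0.177, and without WT 58 it was -1.44, with an adjusted p of 0.0683.

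*Cmpk2* was at 15.5, 8.62, 9.75, 8.69 and 7.97 CPM in the WT mice in the same order. In OB mice it ranged from 4.47 to 8.03 with a median of 6.10 CPM, and in CCKRi mice it was at 4.17, 6.13, 6.02 and 6.88 CPM. OB mice were below WT mice with no overlap within batch A and within batch B, and across batches the highest OB and lowest WT values crossed, at 8.03 and 7.97 CPM. The log2 fold change was -0.71 ± 0.18, with an adjusted p of 0.0180 by edgeR. It passed the test in 15 of 16 fits that left out 1 mouse, the exception being that without WT 5489, with -0.55 and an adjusted p of 0.0704.

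*Stat2* was at 14.3, 13.3, 9.81, 15.8 and 18.2 CPM in WT mice. In OB mice it ranged from 6.84 to 14.5 with a median of 8.66 CPM, and in CCKRi mice it was at 16.2, 12.3, 14.3 and 10.9 CPM. WT and OB mice overlapped across batches and within batch A, where OB 441 at 10.1 CPM was above WT 5494. In batch B all OB mice were below both WT mice. The log2 fold change was -0.55 ± 0.16, with an adjusted p of 0.0431 by edgeR. This was the least firm of the 3 calls, since it held in 6 of 16 fits that left out 1 mouse. It was also lost with no batch covariate (adjusted p of 0.155 by edgeR), when normalized without the 50 genes of most counts (0.0580) and with at least 10 counts required in every mouse (0.0673). The change of *Stat2* in those fits and all other alternatives ranged from -0.63 to -0.47, with adjusted p of 0.0216 to 0.350.

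**Figure D2:**
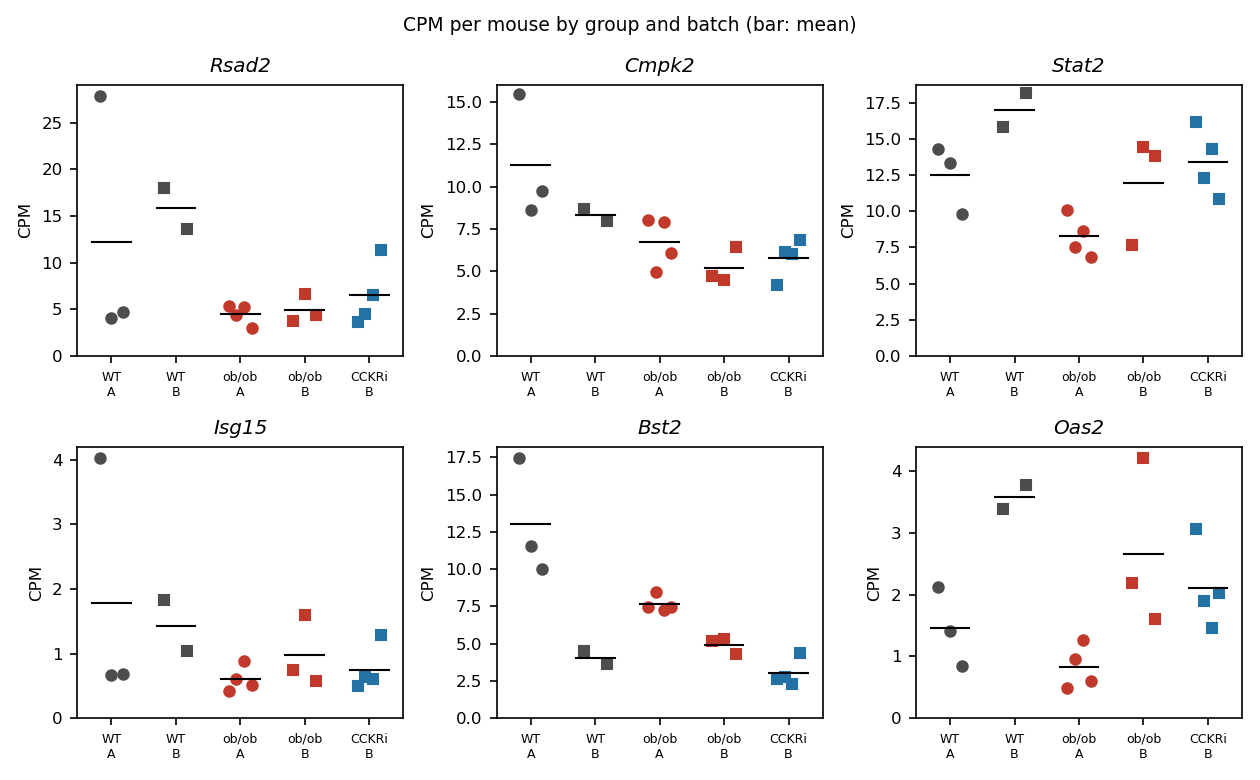
CPM of 6 of the genes (y axis, linear from 0) in each mouse by group and batch (x axis), with the mean as a bar. *Rsad2* reached 27.8 CPM in WT 5489 but stood at 4.08 and 4.76 CPM in the other WT mice of batch A, inside the Lep(ob/ob) range of 2.98 to 6.69 CPM.

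The other transcription factors did not pass the test. *Irf7*, which amplifies the type I response, was at 9.10 CPM in WT 5489 and at 1.81 to 3.84 in the other 4 WT mice, inside the OB range of 1.07 to 5.60 CPM. *Irf1* was at 11.1 ± 1.96 CPM (SD, n = 5) in WT and 9.85 ± 2.33 (n = 7) in OB mice. *Irf9*, the DNA-binding subunit of the STAT complex, was at 7.48 ± 1.85 and 6.66 ± 1.49 CPM. The log2 fold changes of these 3 genes were -0.74 ± 0.41, -0.19 ± 0.14 and -0.18 ± 0.12 (SE). That of *Irf7* was -0.13 without WT 5489 and -0.0071 in batch B alone.

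The 3 RNA sensors, which detect viral RNA in the cytosol, had log2 fold changes of -0.40 to -0.12. *Ifih1* (MDA5) was at 8.08 ± 0.886 CPM (SD, n = 5) in WT and 7.73 ± 3.51 (n = 7) in OB mice, where OB 463 alone reached 14.6 CPM. In the ISG15 system, *Isg15*, a ubiquitin-like protein attached to other proteins, was at 4.02, 0.669, 0.680, 1.83 and 1.03 CPM in the 5 WT mice. In OB mice it ranged from 0.427 to 1.60 with a median of 0.612 CPM. Only WT 5489 and 58 were above the OB range. The log2 fold change of *Isg15* was -1.09 ± 0.46, with an adjusted p of 0.160 by edgeR, and without WT 5489 it was -0.31. *Usp18*, the protease that removes ISG15, was 1 of the 3 genes with a positive fold change, 0.39 ± 0.39, and without 1 mouse its value ranged from 0.19 (without WT 5492) to 1.03 (without WT 5489).

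Within batch B, *Usp18* was also the 1 gene of the 40 whose OB mice all lay above both WT mice, at 2.11, 1.91 and 1.79 against 1.28 and 1.22 CPM. Of all genes, 17.2% did so. *Rsad2*, *Cmpk2* and *Stat2* were the 3 genes whose OB mice all lay below both WT mice of batch B, or 7.5% of the list against 15.7% of all genes. In batch A the 4 OB mice lay below the 3 WT mice without overlap for 5 of the 40 genes, *Cmpk2*, *Bst2*, *Gbp7*, *Tap1* and *Ifi44*, or 12.5% of the list against 10.3% of all genes.

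Among the antiviral effectors, 8 of 10 had a negative fold change and only *Rsad2* and *Cmpk2* passed. *Ifit1*, which binds viral RNA that lacks a host cap, was at 6.29 CPM in WT 5489 and at 1.07 to 2.29 in the other 4 WT mice, within the OB range of 0.512 to 4.12 CPM. *Mx1*, a dynamin-like GTPase, was at 1.67 CPM in WT 5489 and 0.267 to 0.640 in the other WT mice, and rested on 1 to 40 counts a mouse. *Bst2* was at 17.4, 11.6 and 9.98 CPM in WT mice and 7.24 to 8.49 in OB mice of batch A, and at 4.48 and 3.65 in WT and 4.34 to 5.29 in OB mice of batch B. Its log2 fold change in batch A alone was -0.69, with an adjusted p of 0.0429 by edgeR. Of the 37 genes tested in that fit it was the only one called, and 1.93% of all genes were called lower. In batch B alone its value was 0.26.

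All 5 genes of the oligoadenylate synthetase family, whose active enzymes switch on RNase L on sensing double-stranded RNA, had negative fold changes and none passed. *Oas3* had the most negative value of the 40 genes, -1.66 ± 0.78, on 0 to 37 counts a mouse, and an adjusted p of 0.207 by edgeR. It had no read in OB 441 and 447. *Oasl2* was at 7.47 ± 2.84 CPM (SD, n = 5) in WT and 6.50 ± 4.61 (n = 7) in OB mice. *Oas1a* was at 1.14 ± 0.439 and 1.03 ± 0.943 CPM, and 57.6% of its 50-mers are shared with other genes, *Oas1g* and *Oas1b* among them, so its count is uncertain. The same holds for *Ifit3*, which shares 51.2% with *Ifit3b*.

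The 6 interferon-induced GTPases, which act on the membranes of intracellular pathogens, had negative fold changes between -1.04 and -0.21 and none passed. *Iigp1* was at 31.1 CPM in WT 5489 and 5.56 to 8.82 in the other WT mice. *Igtp* was at 11.8 CPM in WT 5489 and 2.43 to 4.48 in the others, and *Irgm1* at 22.2 against 7.88 to 12.8 CPM. *Gbp2* instead was highest in OB 463, at 30.6 CPM, with 2.89 to 18.7 in the other OB and 6.52 to 15.4 in WT mice. *Tap1*, a chain of the peptide transporter for MHC class I, was at 6.67 ± 2.91 CPM (SD, n = 5) in WT and 4.40 ± 1.74 (n = 7) in OB mice. The 5 PARP, DTX3L, TRIM and SP100 genes had fold changes of -0.39 to -0.01.

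**Figure D3:**
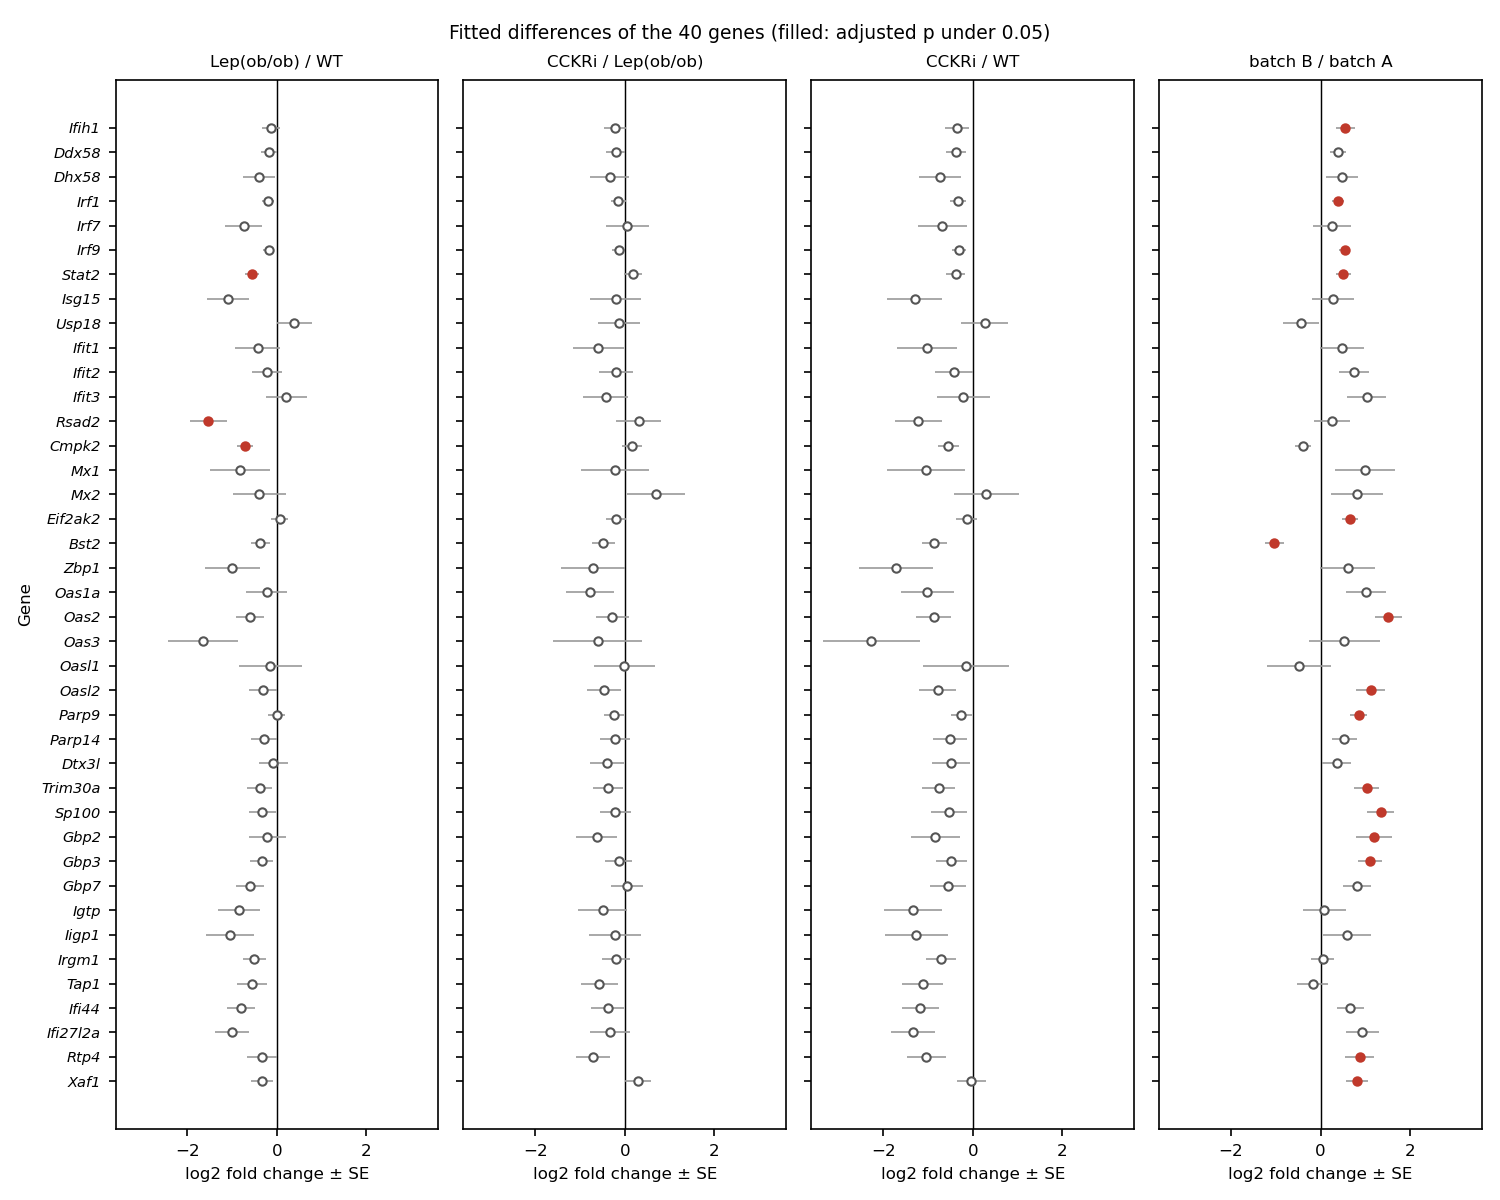
Log2 fold change ± SE of each gene (x axis) in 4 comparisons of the same fit. Filled points have an adjusted p under 0.05 over 13660 genes. Points lie left of 0 for 37 of 40 genes in Lep(ob/ob) against WT with 3 filled. In batch B against batch A they lie right of 0 for 35 of 40 genes, with 14 filled there and 1 filled left of 0.

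Of the 16 mice, OB 463 was the highest for 20 of the 40 genes and WT 5489 for 16. For all genes these mice were the highest for 20.8% and 11.7%. OB 447 was the lowest for 23 of the 40 genes and for 6.50% of all genes. WT 5489 exceeded the mean of the other 2 WT mice of its batch by over 1 log2 unit for 18 of the 40 genes, against 1.75% of all genes, with a median of 0.87 and 0.01 respectively. OB 463 exceeded the other 2 OB mice of its batch by over 1 for 20 of the 40 genes, against 12.1% of all genes, with medians of 1.02 and 0.03. For 12 genes both mice did so, for 6 only WT 5489 and for 8 only OB 463. In WT 5489 the largest excesses were those of *Rsad2* (2.63), *Oas3* (2.61) and *Isg15* (2.39). In OB 463 they were those of *Oasl1* (2.26), *Oas3* (2.03), *Mx1* (1.88) and *Zbp1* (1.88), the last a sensor of Z-form nucleic acid. *Cmpk2* differed by 0.75 in WT 5489 and by -0.30 in OB 463, and *Ifi27l2a* differed by -0.71 in WT 5489 and by 1.80 in OB 463.

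**Figure D4:**
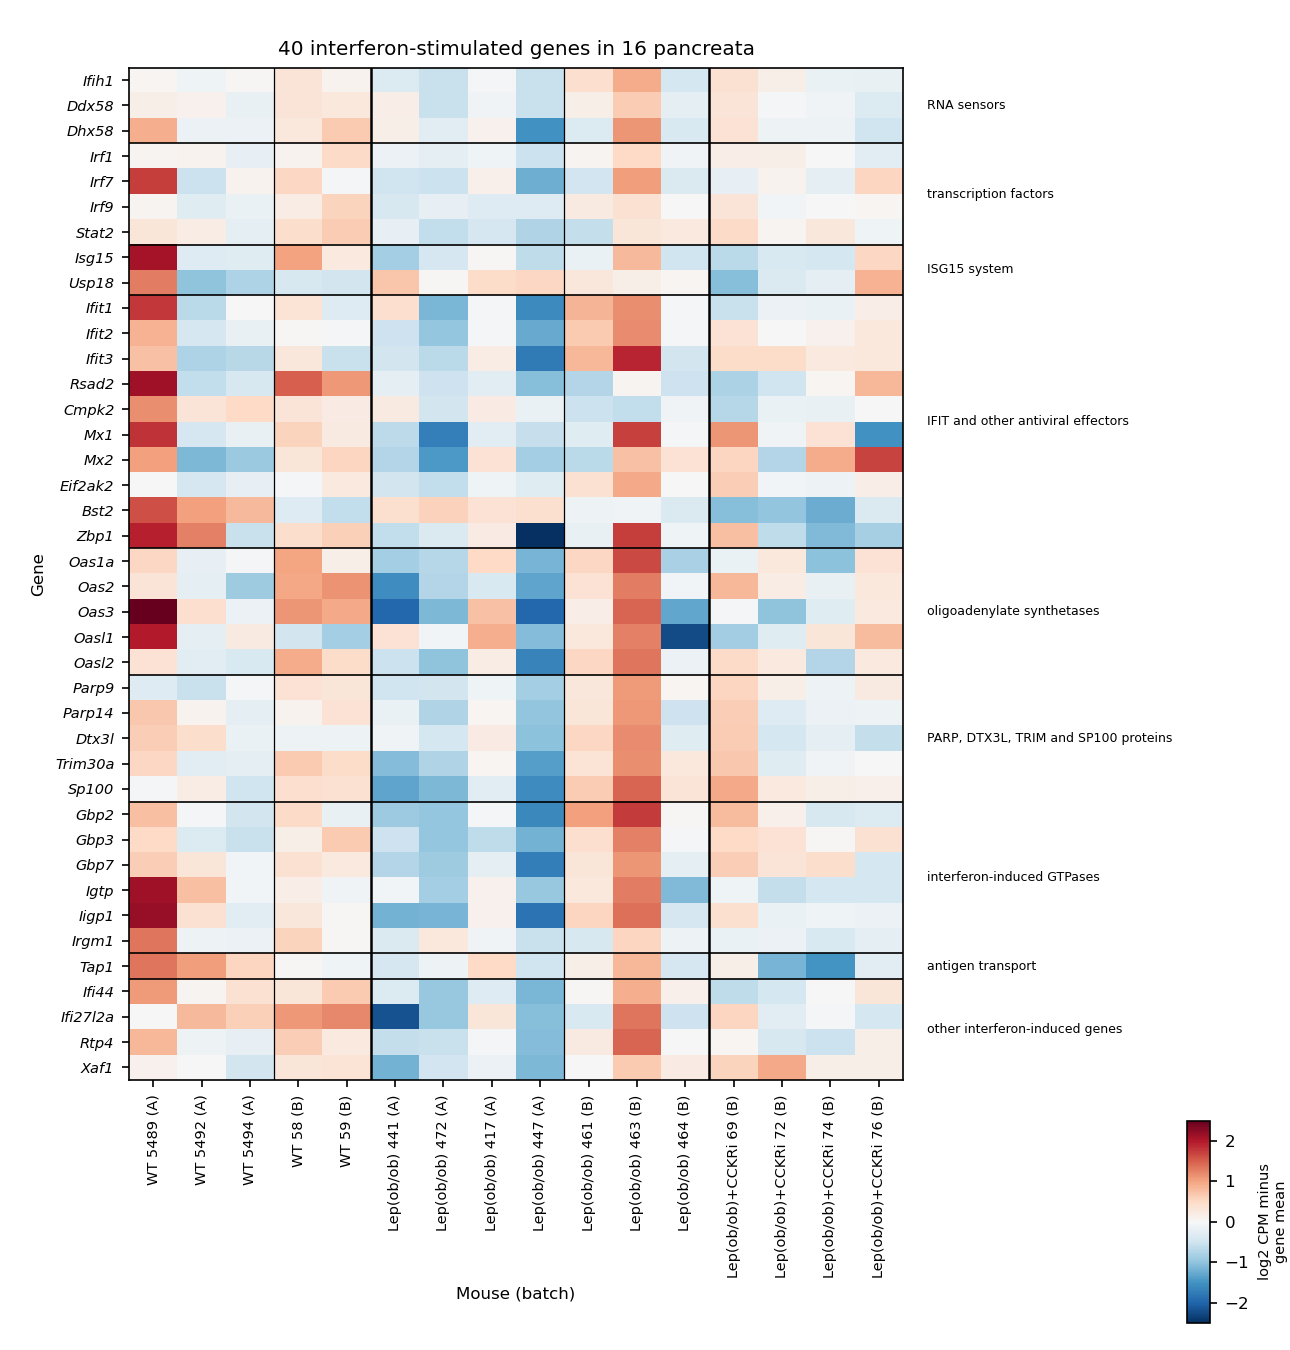
Log2 CPM of each gene (y axis, grouped by role) minus its mean over the 16 mice, in each mouse (x axis). Red is above and blue below the mean of the gene, and colours end at 2.5 on either side. The columns of WT 5489 and Lep(ob/ob) 463 are red for most genes and that of Lep(ob/ob) 447 is blue.

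**Figure D5:**
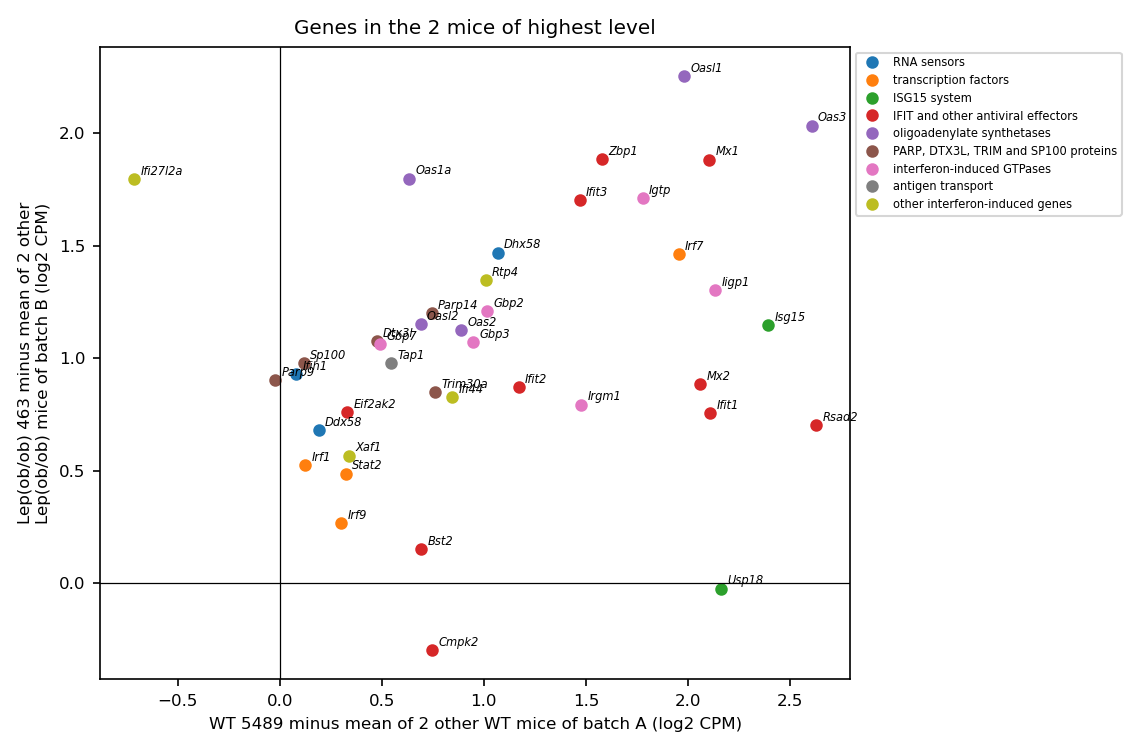
Log2 CPM of each gene in WT 5489 minus the mean of the other 2 WT mice of batch A (x axis) against Lep(ob/ob) 463 minus the mean of the other 2 Lep(ob/ob) control mice of batch B (y axis). Colour gives the role. Both values were above 0 for most genes, and *Rsad2*, *Usp18* and *Ifit1* lay farther along the x axis than the y axis.

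OB 463 had the highest mean level of all 16 mice for 7 of 11 marker lists. Its level was 5.90 log2 CPM for macrophages (2.68 to 4.83 in the other mice), 6.24 for adipocytes (2.09 to 5.56) and 2.80 for T and B lymphocytes (-1.21 to 2.54). It was highest for dendritic, lymph node, endothelial and fibroblast markers too, and lowest for duct markers. WT 5489 was highest for acinar markers only, with 14.3 log2 CPM. Its macrophage level of 3.56 and adipocyte level of 2.31 were the lowest of the 5 WT mice, and its natural killer cell level was 0.02 against -0.98 and -1.51 in the other 2 WT mice of batch A. Of the 73 markers 65 passed the low-count filter, and *Ccl21a* was at 0 in all 16 mice. The part of these cells in the levels of the 40 genes was not tested.

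The call in OB against WT moved with the mice included. Without OB 463, 5 of 39 genes tested were lower, *Ifi27l2a* and *Ifi44* being added to the 3, against 2.55% of all genes in that fit. Without WT 5489 none of 39 genes tested was called, and without WT 58 only *Cmpk2* was, against 1.71% of all genes lower. The fold change of 20 genes was followed with 1 mouse left out at a time, in 16 fits each but 14 for *Oas3*. Of these genes 15 moved by over 1.5 times or changed sign without some mouse, 14 of them without WT 5489 and 5 without OB 463. Without the 4 Lep(ob/ob) mice that had the highest adipocyte levels, OB 417, 461 and 463 and CCKRi 69, 21 of the 40 genes were lower, against 4.83% of 13646 genes called lower in that fit. It held 3 OB mice of batch A and 1 of batch B. The 3 OB mice left out were also the 3 of highest mean level for the 40 genes among OB mice (1.86, 1.96 and 2.81), and no WT mouse was left out, so more lower calls were built into this choice. Among the 21 genes were *Irf7*, *Ifih1*, *Tap1*, *Gbp2*, *Igtp* and *Oas1a*. Without WT 5489 and OB 463 together, 1 of 37 genes tested was called lower, *Ifi27l2a*, against 1.81% of all genes.

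In CCKRi against OB mice, none of the 40 genes was called by edgeR, none had an unadjusted p under 0.05 (14.3% of all genes did), and DESeq2 called none. Of all genes, 0.0586% were called in either direction. The fold change was negative for 33 of 40 genes, against 51.2% of all genes, with a median of -0.22. This direction rested on OB 463, since without it 13 of 39 genes tested were negative and the median was 0.10. In the same comparison all 10 macrophage markers were negative (median -1.22, 9 with an unadjusted p under 0.05), as were all 5 fibroblast markers (median -0.79, 4 with an unadjusted p under 0.05). Their part in the values of the 40 genes was not tested. *Bst2* had the smallest p of the 40 genes, with CCKRi mice at 2.65, 2.80, 2.31 and 4.38 CPM, OB mice of batch B at 5.19, 5.29 and 4.34 CPM, and a log2 fold change of -0.48 ± 0.26. *Rtp4*, a receptor-transporting protein, followed with -0.70 ± 0.38, and OB 463 at 5.64 CPM was the highest mouse. With 1 mouse left out, the value of *Rtp4* ranged from -0.86 to -0.15. No gene of the 40 had all CCKRi mice below the OB mice of batch B, against 3.57% of all genes. The mean level over the 40 genes was 1.99 and 1.66 in the 2 proglumide mice and 1.63 and 1.85 in the 2 lorglumide mice, and the doses differ. *Usp18* was at 0.763 and 1.32 CPM in the proglumide mice and 1.46 and 3.24 in the lorglumide mice.

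In CCKRi against WT mice, which uses the same mice as the other comparisons, none of the 40 genes was called by edgeR. Of all genes 1.35% were called lower and 4.22% higher. At an unadjusted p under 0.05 there were 8 genes, or 20.0% of the list against 16.7% of all genes in either direction. All 8 were lower, and of all 13660 genes 995 were lower at that p. DESeq2 called 1, *Bst2*, and the share of all genes it called in this comparison is not given here. The fold change was negative for 38 of 40 genes, against 52.8% of all genes, with a median of -0.69 for the 40 genes and -0.02 for all genes. All CCKRi mice were in batch B, and in batch B alone 31 of 40 genes were negative, with a median of -0.29. There the mean level of the 40 genes was 1.78 log2 CPM in CCKRi and 2.13 in WT mice, a difference of -0.35. In the same comparison all 10 macrophage markers had negative fold changes (median -0.86), as did all 3 natural killer cell markers (median -1.39), each list with 1 marker at an unadjusted p under 0.05, and all 5 endothelial markers (median -0.33), 3 of them at that p. Of the 7 islet markers 5 were called higher (median 2.51), and of the 5 duct markers 1 was called higher and 1 lower. Of the 6 adipocyte markers 1 was called lower and 5 were positive (median 1.11). All 5 fibroblast markers (median -0.67) and 7 of 8 acinar markers (median -0.73) were negative, with none called. The part of these cells in the values of the 40 genes was not tested. For *Bst2* the log2 difference was -0.86 ± 0.29. Its adjusted p of 0.103 by edgeR became 0.0372 without WT 59 and 0.0404 without CCKRi 76. In batch B alone its value was -0.41. *Ifi27l2a* was at 5.23, 9.36, 8.00, 11.3 and 12.2 CPM in WT mice and 7.67, 4.33, 5.04 and 3.84 in CCKRi mice. Only WT 5489, at 5.23 CPM, lay within the range of the CCKRi mice, and in batch B both WT mice (11.3 and 12.2) were above all CCKRi mice. Its log2 fold change was -1.34 ± 0.49, with an adjusted p of 0.146 by edgeR. *Tap1* had -1.12 ± 0.46 and *Ifi44* had -1.17 ± 0.41, and in batch B alone these values were -0.51 and -0.69.

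More of these genes differed by batch than by group, as was also the case over all genes. In batch B against A, 14 of the 40 genes were higher and 1 lower by the same edgeR fit, against 18.1% and 17.7% of all genes, and the median log2 fold change was 0.57 for the 40 genes and 0.06 for all genes. The largest were *Oas2* (1.51 ± 0.30, adjusted p 0.00158), *Sp100* (1.34 ± 0.30, 0.00309), *Gbp2* (1.18 ± 0.41, 0.0322), *Oasl2* (1.11 ± 0.31, 0.0126) and *Gbp3* (1.10 ± 0.26, 0.00443). *Trim30a* followed with 1.03 ± 0.28, *Rtp4* with 0.87 ± 0.32, *Parp9* with 0.85 ± 0.18 and *Xaf1* with 0.81 ± 0.25. *Bst2* was the 1 gene lower in batch B, with -1.04 ± 0.22 and an adjusted p of 0.00200. *Oas2* was at 2.12, 1.40 and 0.851 CPM in WT mice of batch A and 3.38 and 3.77 in those of batch B, without overlap. *Isg15*, *Irf7*, *Rsad2* and *Irgm1* had batch differences of 0.04 to 0.27, below their SE. Acinar markers moved with batch as well, whose mean lay between 13.4 and 14.3 log2 CPM in mice of batch A and between 11.7 and 13.4 in those of batch B, with 5 of 8 called lower. Of the 10 macrophage markers 4 were called higher in batch B, of the 3 natural killer cell markers 2 and of the 5 fibroblast markers 2. All 7 islet markers were negative (median -0.79) with 2 called lower, and of the 5 endothelial markers 1 was called lower. The part of these cells in the batch difference of the 40 genes was not tested.

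The genotype difference itself was set against batch by an interaction contrast, OB minus WT in batch B less that in batch A. It was above 0 for 39 of the 40 genes, with a median of 0.92 against 0.04 for all genes. For the mean level of the 40 genes the same difference was 0.75, and it was 0.40 without WT 5489, 0.40 without OB 463 and 0.049 without both. None of the 40 genes and 0.0% of all genes passed by edgeR. At an unadjusted p under 0.05 there were 11 of the 40 genes (27.5%), against 10.97% of all genes. Among them were *Iigp1* (2.52 ± 0.86), *Igtp* (2.09 ± 0.82), *Ifit1* (1.94 ± 0.89), *Gbp2* (1.88 ± 0.68) and *Bst2* (1.05 ± 0.35), and the 11 genes had adjusted p of 0.438 to 0.451 by edgeR. Markers of other cells moved in the same contrast. All 8 T and B lymphocyte markers were above 0 (median 3.21, 6 with an unadjusted p under 0.05), as were all 3 lymph node markers (3.13), all 6 adipocyte markers (2.47) and all 10 macrophage markers (1.39). All 7 islet markers (median -1.31) and 4 of 5 duct markers (median of the list -0.73) were below 0, 1 and 2 of them at that p. Their part in the values of the 40 genes was not tested.

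Upstream of these genes, 51 genes of interferon production, reception and signalling were listed by role and 40 of them passed the low-count filter. Of the 10 interferon genes listed, 9 had no read in any of the 16 mice and *Ifng* had 4 reads, 1 in each of 4 mice, so their levels were below what this depth can measure. The receptor chains were readily detected. *Ifnar1* was at 15.4 ± 0.606 CPM (SD, n = 5) in WT, 16.2 ± 4.60 (n = 7) in OB and 15.4 ± 2.52 (n = 4) in CCKRi mice. *Ifnar2* was at 11.4 ± 0.984, 13.5 ± 5.09 and 10.7 ± 3.35 CPM, and *Ifngr1* at 15.8 ± 1.76, 21.5 ± 13.6 and 18.1 ± 5.77. None of these 3 genes passed the test in any of the comparisons between groups.

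Of the 40 pathway genes tested, 1 rose in OB against WT mice, *Ptpn1*, a phosphatase that dampens JAK signalling, and none fell, against 5.93% and 3.14% of all genes. *Ptpn1* was at 12.6 ± 2.25 CPM in WT and 16.98 ± 2.94 in OB mice, a log2 difference of 0.45 ± 0.13, with an adjusted p of 0.0432 by edgeR. In CCKRi against OB mice none was called, and 8 (20.0%, against 14.3% of all genes in either direction) had an unadjusted p under 0.05. All 8 were lower, *Ptpn1* with -0.59 ± 0.16 among them, and of all 13660 genes 921 were lower at that p. In CCKRi against WT mice 1 fell, *Il10rb*, a receptor chain that lambda interferons share with other cytokines, from 27.0 ± 1.79 CPM in WT to 20.4 ± 2.58 in CCKRi mice, where 1.35% of all genes were called lower. Its log2 fold change was -0.55 ± 0.14, with an adjusted p of 0.0249 by edgeR. In OB against WT mice the pathway genes had a median log2 fold change of -0.05, with 21 of 40 below 0. In batch B against A, 7 were higher and 3 lower, against 18.1% and 17.7% of all genes. Those with the largest fold changes were *Mb21d1*, which encodes the DNA sensor cGAS (1.58 ± 0.31), *Tlr7*, a receptor for single-stranded RNA (1.29 ± 0.41), the phosphatase *Ptpn2* (0.88 ± 0.13), the kinase *Ikbke* (0.82 ± 0.20), *Ifngr1* (0.73 ± 0.27) and *Tlr3*, a receptor for double-stranded RNA (0.70 ± 0.19). In the interaction contrast 32 of the 40 pathway genes were above 0, with a median of 0.55, and 13 of the 40 (32.5%) had an unadjusted p under 0.05. The share was 27.5% for the interferon-stimulated genes and 10.97% for all genes, and the difference between the lists was not tested.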

How the data were processed

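Polyadenylated RNA of 16 pancreata, 20 to 40 mg of pulverized tissue each, was made into strand-marked libraries and sequenced as read pairs. Per the submitters' processing notes, reads were trimmed with Trim Galore 0.6.7 and cutadapt 3.5 and aligned with STAR 2.7.9 to mm10. The read counter, its strand setting and the annotation are not given in the sources used here. The authors deposited raw counts per gene, used here, and a table of signal (these counts over a constant of each library, 0.617 to 1.44), used only to check that the counts were not normalized.

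Groups came from the labels. Counts were filtered (filterByExpr), normalized (TMM) and tested with edgeR 4.0.16 in R 4.3.3 in 1 fit of group and batch, with Benjamini-Hochberg adjustment over 13660 genes at 0.05. The study used DESeq2, here (1.42.0) an alternative. The fit was tested on simulated data. Same-group libraries differed by 7.57 to 403 in chi-square per gene, so none was counted as a repeat. Total counts of 9.87 to 34.45 M limit genes of few counts. Positions came from GENCODE M21.

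The 40 genes and all lists were chosen with earlier results of these data known. All 40 genes could be named. Called genes were named with fold changes if among the 10 largest, 16 genes were named for their roles, pathway genes were named where called (at most 6 a comparison, by fold change), and *Ifnar1*, *Ifnar2* and *Ifngr1* always. Another pathway gene named by this rule is not reported here. Other scalings, filters, tools, batches and sets of mice were tried as alternatives.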

Additional observations from a re-analysis of the deposited data

Results flagged for a closer look

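In groups of 4 to 10 mice, the gap of the highest or lowest mouse to the next, divided by the range of the group on the log2 CPM scale, was compared with Dixon's critical value. Of 123 groups (40 genes and their mean level in 3 groups of mice) 4 exceeded it, where chance gives about 6, or 1 in 20. WT 5489 stood above the other 4 WT mice for *Usp18*, with a ratio of 0.734, and for *Iigp1*, with 0.733. CCKRi 69 stood above the other 3 CCKRi mice for *Sp100*, with 0.860, and for *Iigp1*, with 0.879.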

How the results depend on the processing

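Counts of the 40 genes called higher were 0 in all 3 comparisons under every alternative, and none was called in CCKRi against OB mice under any. The 3 genes called lower in OB against WT mice became 2 with no batch covariate, when normalized without the 50 genes of most counts and with at least 10 counts in every mouse, *Stat2* being lost each time, 1 in batch A alone, 0 in batch B alone, 1 with a log2 fold change of at least 1, 21 without the 4 mice of high adipocyte level, 1 without WT 5489 and OB 463 together (chosen after seeing the data), and 0 to 5 when 1 mouse was left out. In CCKRi against WT mice, 0 became 2 with no batch covariate, 1 with DESeq2, 3 without the 4 mice of high adipocyte level, and 0 to 1 when 1 mouse was left out. Apart from the mice chosen, the cause was not tested. All genes called lower in CCKRi against WT mice numbered 733 of 13660 with no batch covariate and 369 of 13660 with DESeq2. They numbered 455 of 13646 without the 4 mice of high adipocyte level. Without WT 59 they numbered 220 of 13647 and without CCKRi 76 230 of 14006, the fits with 1 mouse left out that called *Bst2*. All genes called in OB against WT mice numbered 1239 with edgeR, 1695 with DESeq2, 8 in batch B alone and 782 with at least 10 counts in every mouse. Of these, 429, 630, 5 and 323 were lower, and with at least 10 counts 31 of the 40 genes were tested. With no batch covariate 196 of 13660 were called lower, and 345 of 13660 when normalized without the 50 genes of most counts. In CCKRi against OB mice they numbered 8 with edgeR, 92 with DESeq2 and 570 with no batch covariate.

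In batch B alone 17 of the 40 fold changes of OB against WT were below 0, against 37 with both batches. Of the 20 genes followed through the alternatives one by one, those that turned positive there were *Ifih1* (0.18), *Ifit1* (0.72), *Oas1a* (0.18), *Mx1* (0.45), *Bst2* (0.26), *Gbp2* (0.89), *Igtp* (0.42) and *Tap1* (0.31). Without WT 5489 the change turned positive for *Ifit1* (0.31), *Mx1* (0.010) and *Gbp2* (0.14), their lowest values with 1 mouse left out being -0.75, -1.42 and -0.53. They did so without WT 5489 and OB 463 for *Ifit1* (0.14), and with no batch covariate for *Gbp2* (0.15). *Rtp4* in CCKRi against OB mice turned to 0.0084 without the 4 mice of high adipocyte level. The mean level of the 40 genes in OB minus WT mice ranged from -0.98 to -0.42 in batch A and from -0.37 to 0.26 in batch B when 1 mouse was left out, and in CCKRi minus OB mice from -0.60 to 0.03. No paired analysis was possible because the mouse numbers are not shared between groups. Genes under 10 counts in some mouse, *Oas3*, *Mx1* and *Isg15* among them, are limited by depth.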
